A study of Papio cynocephalus with 12 samples.

Results

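The proteasome is the protease complex that degrades ubiquitin-tagged proteins in the cytoplasm and nucleus. Its 20S core is a barrel of stacked rings built from alpha subunits (PSMA) and beta subunits (PSMB), and 3 of the beta subunits, PSMB5, PSMB6 and PSMB7, carry the catalytic sites. A 19S cap of ATPases (PSMC) and non-ATPase subunits (PSMD) recognises, unfolds and feeds the substrate, and the PA28 cap, made of PSME1 and PSME2, opens the core without ATP. In immune cells, and in other cells under interferon-gamma, PSMB8, PSMB9 and PSMB10 replace the 3 constitutive catalytic subunits. The resulting immunoproteasome cuts proteins into peptides for MHC class I molecules, and PSMB8 and PSMB9 are themselves encoded in the MHC region of the genome.

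The 37 genes described here were chosen by name, as subunits of this complex, from 40915 RefSeq accessions in the tables. The rule uses no measured value, but earlier results of these data were known when the genes were chosen. Each is represented by 1 accession, which had 1 row in every table, and other isoforms of the same gene were not used. The symbols come from the list that defined the group and were not checked against an annotation.

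The samples were blood of 12 yellow baboons (Papio cynocephalus) drawn at baseline (0 hours), before any inoculation, with 1 sample per animal. The animals were adult males bred in a colony, and all of them form a single group, named animals 1 to 12. The study describes globin-depleted RNA from PAXgene blood tubes, whereas the labels name mononuclear cells, and marker genes of blood cells could not be used to check this because the accessions are not paired with names. The reads of each animal were mapped to human sequence in 6 ways, which are 6 measurements of the same library and not 6 samples. Bowtie2 and Stampy mapped to the reference transcriptome, and Bowtie2-G, Stampy-G, TopHat2 and GSNAP to the reference genome. Of these, TopHat2 and GSNAP allow reads to be spliced, and TopHat2 also maps to annotated transcripts before it maps to the genome. The total counts of a column ran from 7249470 to 18911340.

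Of the 37 subunit genes, 29 had a mean of 10 counts or more per animal with TopHat2 and are followed below. Another 5 were listed at 0 in all 72 columns: PSMB5 and PSMB6, a pair of constitutive catalytic subunits, PSMD1 and PSMD11 of the 19S cap, and PSME1, the partner of PSME2 in PA28. Among all NM accessions 35.2% were at 0 throughout, compared with 13.5% of the 37. A count of 0 limits the reads assigned to that accession and says nothing of the gene's other isoforms. The remaining 3, all of the alpha ring, had very few counts. PSMA1 had between 0 and 16 counts summed over the animals in a method, PSMA3 between 0 and 4, and PSMA4 between 0 with GSNAP and 96 with Stampy-G. PSMB7 (NM_002799) was therefore the only constitutive catalytic subunit with values to set against its immunoproteasome counterpart, PSMB10.

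Counts depend on the length of a transcript, which the tables do not give, so the levels of different genes were not compared with each other. Within a gene, counts were expressed per 1000000 read pairs left after quality control, a scale that is the same for all 6 columns of an animal. Summed over the 37 genes, the subunits had 1314 ± 211 counts per 1000000 read pairs with TopHat2 (SD, n = 12), 1252 ± 208 with Stampy, 1075 ± 169 with Stampy-G, 1038 ± 177 with Bowtie2, 791 ± 126 with Bowtie2-G and 639 ± 100.4 with GSNAP.

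The largest losses fell on different subunits in different methods. On the transcriptome, 22 of the 29 genes had between 90% and 110% of their TopHat2 counts with Bowtie2, and the lowest was PSMB8 at 11.9%. On the genome, 28 of 29 had less than 90% with Bowtie2-G and 16 of 29 with Stampy-G, and all 29 with GSNAP. Fewer than 50% of the TopHat2 counts remained for 16 genes with GSNAP, 12 with Bowtie2-G and 8 with Stampy-G, compared with 3 with Bowtie2 and 2 with Stampy.

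**Figure D1:**
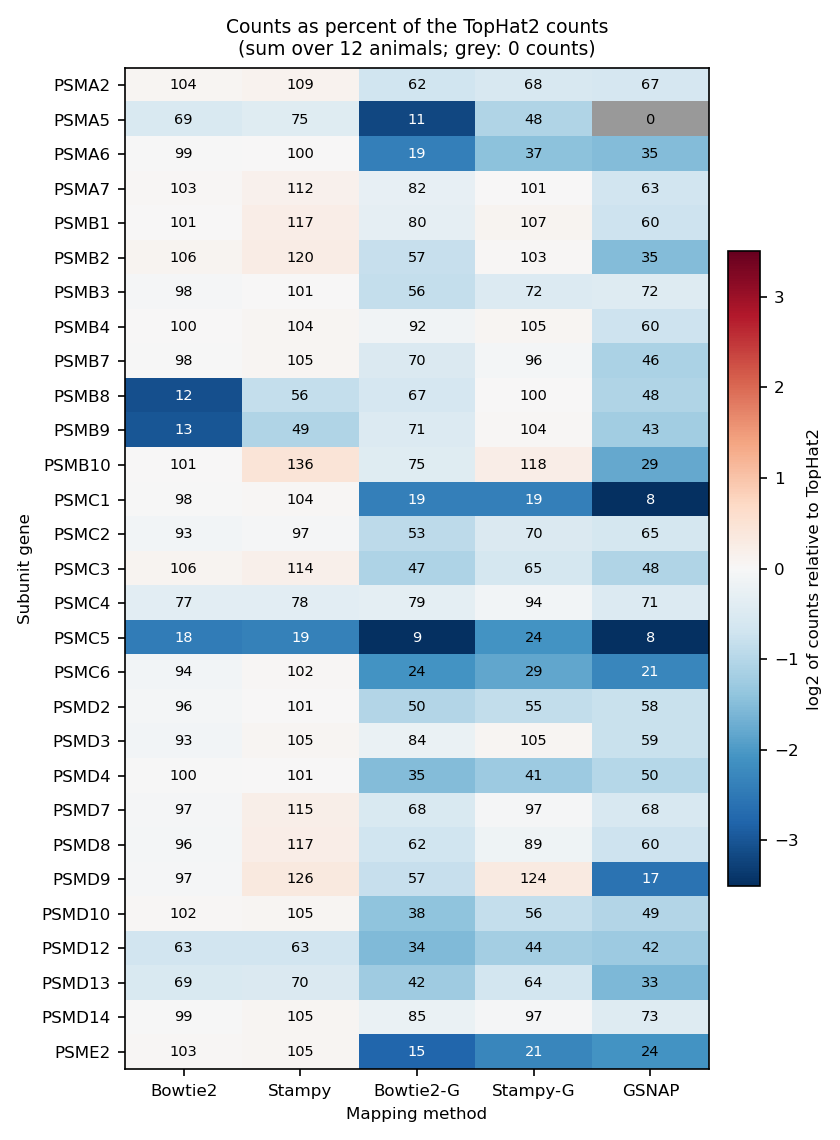
Counts of the 29 subunit genes (rows) under 5 mapping methods (columns), as percent of the TopHat2 counts, summed over the 12 animals. Colour is the log2 of the same ratio, with blue below and red above TopHat2. PSMB8, PSMB9 and PSMC5 stand out as low on the transcriptome, and PSMA5, PSMA6, PSMC1, PSMC5, PSMC6 and PSME2 with Bowtie2-G.

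The comparison of the transcriptome with the genome asked whether the reference used for mapping changes the counts of a gene. It separated the immunoproteasome subunits. With Bowtie2 on the transcriptome, PSMB8 kept 11.9% and PSMB9 12.5% of their TopHat2 counts, whereas PSMB10 had 101.0%. PSMB8 (NM_148919), which takes the place of PSMB5, had 207 to 322 counts per animal with Bowtie2 (median 249.5). With TopHat2 it had 1681 to 2574 (median 2141.5), with Bowtie2-G 1095 to 1782 (median 1423) and with Stampy 879 to 1543 (median 1200). The 12 Bowtie2 values lay below all values of the other methods. PSMB9 (NM_002800), which takes the place of PSMB6, had 571 to 1497 counts with Bowtie2 (median 946.5), 4830 to 11766 with TopHat2 (median 7932.5), 3531 to 8419 with Bowtie2-G (median 5528.5) and 2319 to 5662 with Stampy (median 3940.5). Bowtie2 was again below the other methods in every animal, and its range did not overlap theirs. Animal 11 had the lowest PSMB9 level per read pair and animal 8 the highest in all 6 methods.

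For single genes, edgeR's quasi-likelihood test was run across the whole table in each of 8 pairs of methods, with the animal as a block and Benjamini-Hochberg adjustment over all accessions tested. In TopHat2 against Bowtie2, 14 of the 29 subunit genes were higher with TopHat2, where 28.4% of all accessions were, and 4 were lower, where 35.3% were. TMM library sizes, which rescale each column by a trimmed mean over the table, gave a median of all accessions of 0.04 in this pair. The split of the subunits was then 22 higher and 0 lower, and that of all 11612 accessions tested was 4600 and 3190. For the other pairs, the counts over all accessions with TMM library sizes are given below, with the effects of the processing. PSMB8 was 8.42-fold higher with TopHat2 (log2 fold change 3.07 ± 0.03 SE, adjusted p = 2.6e-19, higher in 12 of 12 animals). PSMB9 was 7.99-fold higher (log2 fold change 3.00 ± 0.01 SE, adjusted p = 4.0e-22, 12 of 12). Of all accessions tested, 0.842% had a larger log2 fold change than PSMB8 and 0.945% a larger one than PSMB9. PSMB10 differed by -0.02 ± 0.01 on the log2 scale (adjusted p = 0.35, higher in 4 of 12 animals), and PSMB7 by 0.02 ± 0.01 (adjusted p = 0.35, 9 of 12). These are averages over animals that differed, since both genes had their highest Bowtie2 counts relative to TopHat2 in animals 1, 2 and 3.

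PSMC5 (NM_002805), an ATPase of the 19S base, was the other subunit with a large difference in this pair. It had 13 to 28 counts with Bowtie2 (median 20.5) and 65 to 141 with TopHat2 (median 105.5), and the ranges did not overlap. It was 5.41-fold higher with TopHat2 (log2 fold change 2.44 ± 0.09 SE, adjusted p = 4.9e-12, 12 of 12 animals). TopHat2 also gave 1.59-fold more counts to PSMD12 (adjusted p = 9.0e-09), 1.45-fold more to PSMA5 (adjusted p = 1.1e-10) and 1.44-fold more to PSMD13 (adjusted p = 8.3e-13), each in 12 of 12 animals by the same test. The 4 genes lower with TopHat2 were PSMA7, PSMB2, PSMC3 and PSME2, and their differences were small: PSMC3, an ATPase, differed by -0.08 ± 0.01 on the log2 scale (adjusted p = 6.3e-05, lower in 12 of 12), and PSMB2, a structural beta subunit, by -0.08 ± 0.01 (adjusted p = 0.029, lower in 12 of 12). PSME2 differed by -0.04 ± 0.01 (adjusted p = 0.0025, lower in 10 of 12) and by 0.01 with TMM library sizes. PSMA7, PSMC3 and PSME2 also had their highest Bowtie2 counts relative to TopHat2 in animals 1, 2 and 3. For PSME2 these were 107.5% to 108.1%, compared with 99.4% to 102.8% in the other animals. The smallest differences should be read against the median of all accessions, which moved by -0.01 in this pair.

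Mapping with the same program to the genome in place of the transcriptome gave more counts to PSMB8 and PSMB9 and fewer to most other subunits. In Bowtie2 against Bowtie2-G, 26 of 29 subunit genes were higher on the transcriptome, where 70.1% of all accessions were, and 2 were lower, where 7.29% were (TMM: 21 higher and 6 lower). The 2 lower genes were PSMB8 at -2.49 ± 0.02 (log2 fold change and SE, adjusted p = 5.0e-19) and PSMB9 at -2.51 ± 0.02 (adjusted p = 1.2e-19), lower in 12 of 12 animals. PSMB10 was higher on the transcriptome by 0.44 ± 0.01 (adjusted p = 6.4e-13), and PSMB7 by 0.49 ± 0.01 (adjusted p = 2.5e-13). The median of all accessions was 0.22 and that of the subunits 0.75.

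With Stampy on the transcriptome, the loss of PSMB8 and PSMB9 was smaller. Stampy gave 56.2% of the TopHat2 counts to PSMB8 and 48.6% to PSMB9, compared with 135.7% to PSMB10. In Stampy against Bowtie2, both on the transcriptome, 22 of 29 subunit genes were higher with Stampy, where 82.6% of all accessions were, and 0 were lower, where 3.36% were. PSMB8 was 4.74-fold higher (log2 fold change 2.24 ± 0.02 SE, adjusted p = 2.2e-18) and PSMB9 3.88-fold higher (log2 fold change 1.96 ± 0.02 SE, adjusted p = 3.2e-18), in 12 of 12 animals each. They stood apart from the other subunits, whose log2 fold changes ended at 0.42 for PSMB10. The median of the subunits was 0.10 and that of all accessions 0.38, and 25 of 29 subunit genes were not above the median of all accessions. With TMM library sizes 2 subunit genes were therefore higher, PSMB8 and PSMB9, and 27 lower, so the directions of PSMB1, PSMB7, PSMB10, PSMD7, PSMD8, PSMD9 and PSME2 turned around. Per read pair these rose by 0.22 for PSMB1, 0.10 for PSMB7, 0.42 for PSMB10, 0.25 for PSMD7, 0.28 for PSMD8, 0.39 for PSMD9 and 0.03 for PSME2 on the log2 scale, in 12 of 12 animals each.

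In Stampy against Stampy-G, 22 of 29 subunit genes were higher on the transcriptome, where 64.6% of all accessions were, and 4 were lower, where 9.12% were (TMM: 12 higher and 15 lower). PSMB8 at -0.84 ± 0.01 (log2 fold change and SE, adjusted p = 3.6e-15) and PSMB9 at -1.09 ± 0.01 (adjusted p = 3.1e-19) were the lowest, and the other 2 were the ATPases PSMC4 at -0.27 ± 0.01 (adjusted p = 5.1e-12) and PSMC5 at -0.29 ± 0.06 (adjusted p = 0.025). All 4 were lower in 12 of 12 animals. PSMB10 was higher by 0.21 ± 0.01 per read pair (adjusted p = 1.9e-09) and PSMB7 by 0.14 ± 0.01 (adjusted p = 1.2e-06). Both were lower with TMM library sizes, where the median of all accessions was -0.20.

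**Figure D2:**
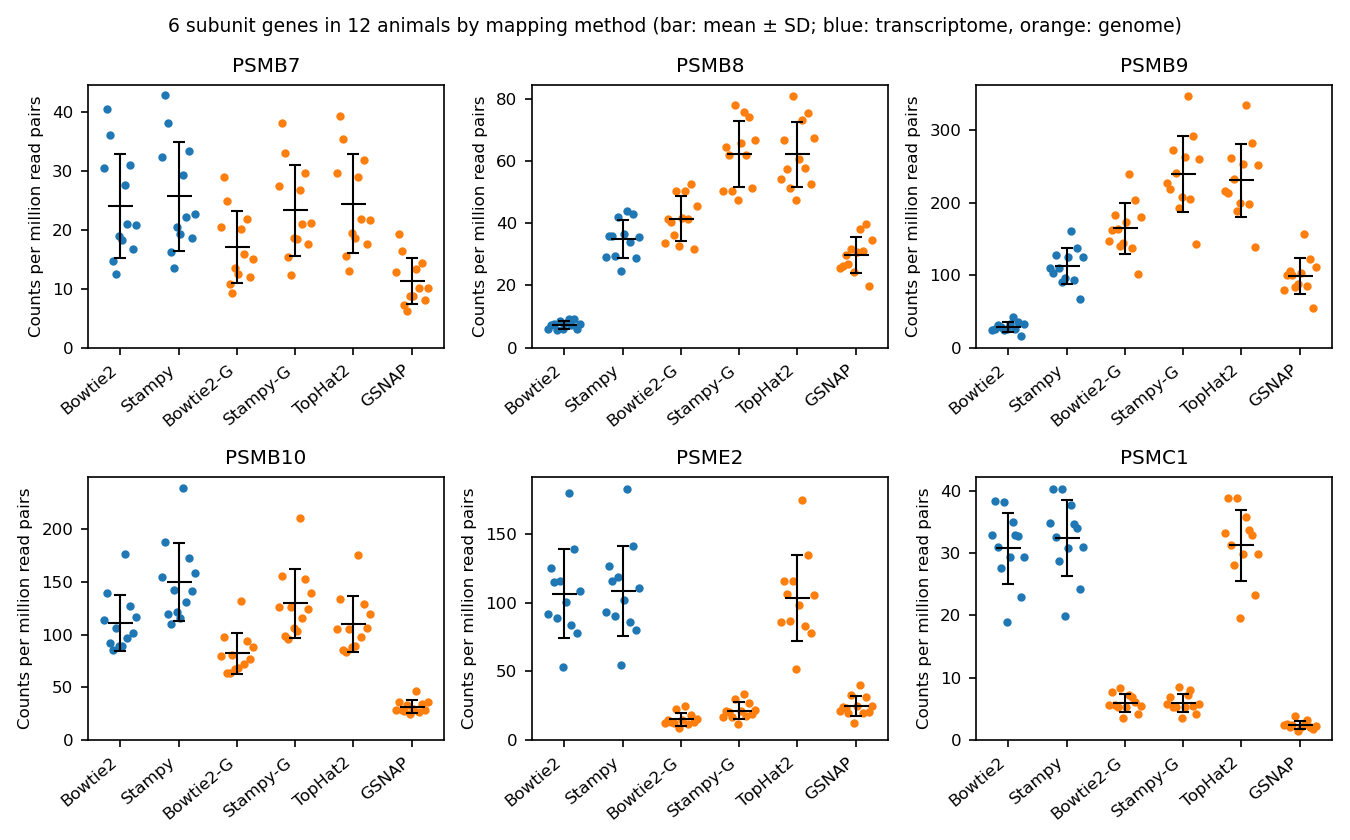
Counts per 1000000 read pairs of 6 subunit genes in the 12 animals (points, animals 1 to 12 from left to right within a method) under the 6 mapping methods, with the mean and SD over animals in black. Blue points are transcriptome mappings and orange points genome mappings. PSMB8 and PSMB9 were lowest with Bowtie2, PSMB10 with GSNAP, and PSME2 and PSMC1 were low in the 3 genome mappings other than TopHat2.

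The methods on the genome differ in whether reads may be spliced and whether annotated transcripts guide them. The programs also differ in their seeds and in the mismatches and gaps they allow, so comparing TopHat2 with the other 3 cannot tell these features apart. In these comparisons a largely different set of subunits was lost, led by PSME2, PSMC1, PSMA5, PSMA6, PSMC5 and PSMC6. Of these, PSMC5 was also low on the transcriptome, where Bowtie2 kept 18.4% of its TopHat2 counts and Stampy 19.3%. It was low in every method other than TopHat2, from 7.66% (GSNAP) to 23.6% (Stampy-G), so its loss was not particular to the genome. PSME2 (NM_002818), the PA28 beta subunit, had 1826 to 6166 counts with TopHat2 (median 3398). It had 303 to 878 with Bowtie2-G (median 478), 413 to 1174 with Stampy-G (median 671.5) and 451 to 1417 with GSNAP (median 783.5). The highest animal in each of these 3 methods was below the lowest animal with TopHat2. Animal 6 was lowest and animal 8 highest for PSME2 in all 6 methods. On the transcriptome PSME2 was close to TopHat2, with 103.2% of its counts with Bowtie2 and 105.1% with Stampy.

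PSMC1 (NM_002802), an ATPase of the 19S base, had 694 to 1294 counts with TopHat2 (median 1110), 126 to 256 with Bowtie2-G (median 199.5), 124 to 286 with Stampy-G (median 201) and 54 to 115 with GSNAP (median 80). It kept 7.54% of its TopHat2 counts with GSNAP, 18.96% with Stampy-G and 18.99% with Bowtie2-G, and no range overlapped that of TopHat2. Its 2 unspliced genome counts were alike: Stampy-G against Bowtie2-G was -0.0027 ± 0.029 on the log2 scale (adjusted p = 0.96, higher with Stampy-G in 5 of 12 animals), in a pair where 28 of 29 subunit genes were higher with Stampy-G, as were 89.7% of all accessions, and 0 were lower, as were 1.86% (TMM: 12 higher and 10 lower). The subunits' median in that pair was 0.45 and the median of all accessions 0.42. PSMA5, a subunit of the alpha ring, showed the largest difference of the subunits there, 4.33-fold higher with Stampy-G (adjusted p = 6.2e-15, 12 of 12 animals).

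In TopHat2 against Bowtie2-G, 29 of 29 subunit genes were higher with TopHat2, where 70.6% of all accessions were, and 0 were lower, where 8.1% were (TMM: 24 higher and 2 lower). The subunits' median log2 fold change was 0.80, compared with 0.20 over all accessions, and 28 of 29 lay above the latter. PSMC5 was 11.1-fold higher (log2 fold change 3.48 ± 0.11 SE, adjusted p = 3.5e-13), PSMA5 8.96-fold (3.16 ± 0.06, adjusted p = 1.5e-15), PSME2 6.85-fold (2.78 ± 0.04, adjusted p = 1.1e-16), PSMC1 5.27-fold (2.40 ± 0.02, adjusted p = 2.0e-18) and PSMA6 5.26-fold (2.39 ± 0.05, adjusted p = 5.8e-15). All 5 were higher in 12 of 12 animals. The immunoproteasome subunits and PSMB7 were nearer to the median, with log2 fold changes of 0.58 for PSMB8, 0.49 for PSMB9, 0.42 for PSMB10 and 0.51 for PSMB7.

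In TopHat2 against Stampy-G, 19 of 29 subunit genes were higher with TopHat2, where 26.3% of all accessions were, and 6 were lower, where 56.1% were (TMM: 27 higher and 2 lower). The subunits' median log2 fold change was 0.48 and that of all accessions -0.14, and 27 of 29 lay above the latter. The same genes led, with PSMC1 at 5.28-fold (log2 fold change 2.40 ± 0.04 SE, adjusted p = 1.1e-15), PSME2 at 4.83-fold (2.27 ± 0.04, adjusted p = 1.2e-15), PSMC5 at 4.22-fold (2.08 ± 0.10, adjusted p = 9.3e-11), PSMC6 at 3.49-fold (1.80 ± 0.07, adjusted p = 5.8e-12) and PSMA6 at 2.68-fold (1.42 ± 0.03, adjusted p = 2.5e-14). The 6 lower genes were PSMB1, PSMB4, PSMB9, PSMB10, PSMD3 and PSMD9. PSMD9, a chaperone of 19S assembly, was lower by -0.31 ± 0.02 (adjusted p = 1.3e-09) and PSMB10 by -0.23 ± 0.01 (adjusted p = 3.9e-13), and these 2 stayed lower with TMM library sizes. PSMB9 at -0.05, PSMB1 at -0.10, PSMB4 at -0.07 and PSMD3 at -0.07 became higher. PSMB8 differed by -0.01 ± 0.02 (adjusted p = 0.76, higher with TopHat2 in 8 of 12 animals).

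In TopHat2 against GSNAP, 29 of 29 subunit genes were higher with TopHat2, where 93.2% of all accessions were, and 0 were lower, where 3.24% were (TMM: 19 higher and 7 lower). The share of the subunits was close to that of the whole table. The subunits' median log2 fold change was 1.05 and that of all accessions 0.72. PSMA5 (NM_002790) had 112 to 206 counts with TopHat2 (median 170) and was listed at 0 in all 12 GSNAP columns. Taking 3 counts over the group of 12 as the floor for GSNAP, TopHat2 was at least 670-fold higher, a bound that covers counting error only. PSMC1 was 13.2-fold higher (log2 fold change 3.73 ± 0.04 SE, adjusted p = 2.4e-19), PSMC5 12.9-fold (3.69 ± 0.12, adjusted p = 3.7e-14), PSMD9 5.96-fold (2.57 ± 0.04, adjusted p = 5.2e-18) and PSME2 4.22-fold (2.08 ± 0.03, adjusted p = 1.5e-18). PSMD9 differed here from its behaviour in the other methods, since it kept 57.4% of its TopHat2 counts with Bowtie2-G and 123.6% with Stampy-G.

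GSNAP also separated PSMB10 from the other immunoproteasome subunits, in the opposite order to the transcriptome mappings. PSMB10 (NM_002801) had 2627 to 6190 counts with TopHat2 (median 3588) and 859 to 1632 with GSNAP (median 1028), with no overlap. It was 3.47-fold higher with TopHat2 (log2 fold change 1.79 ± 0.03 SE, adjusted p = 4.4e-17), compared with 2.08-fold for PSMB8 (1.05 ± 0.05, adjusted p = 3.1e-12), 2.33-fold for PSMB9 (1.22 ± 0.03, adjusted p = 4.5e-16) and 2.16-fold for PSMB7 (1.11 ± 0.01, adjusted p = 4.7e-19), each in 12 of 12 animals.

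**Figure D3:**
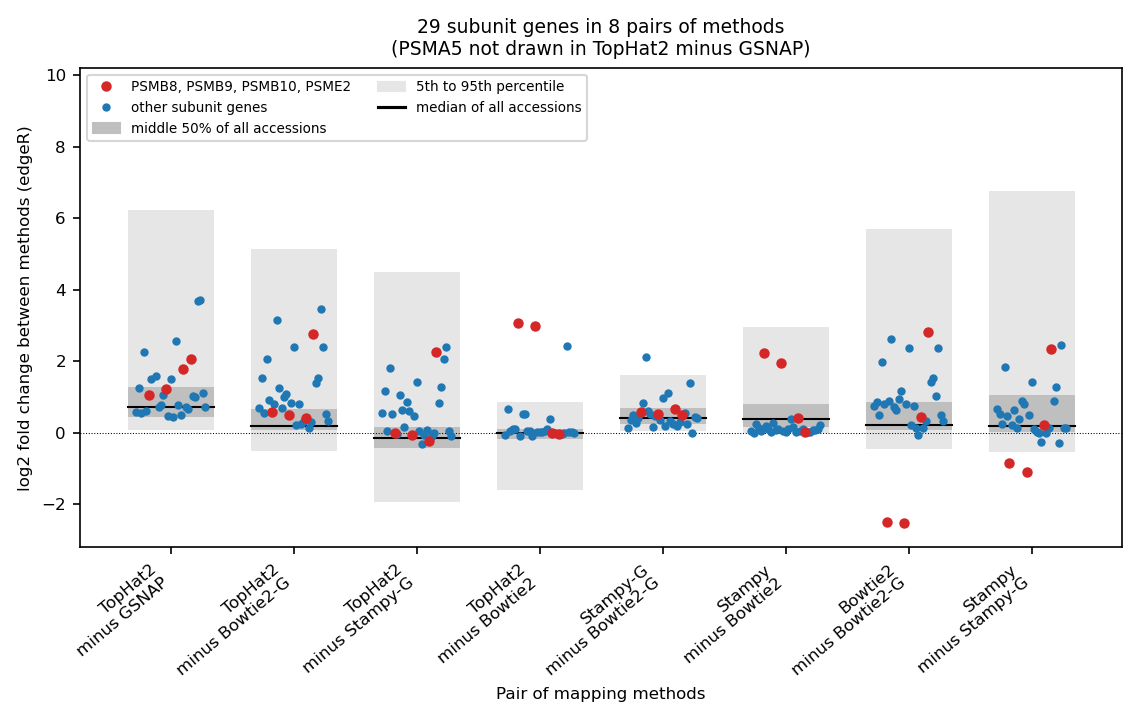
Log2 fold changes of the 29 subunit genes between 2 mapping methods (vertical axis) in the 8 pairs tested (horizontal axis), over the median, the middle 50% and the 5th to 95th percentile of all accessions tested in that pair. Red points are PSMB8, PSMB9, PSMB10 and PSME2. In the pairs that involve Bowtie2 on the transcriptome, PSMB8 and PSMB9 lie outside the bulk of the subunits, at 3.07 and 3.00 in TopHat2 minus Bowtie2, where PSMB10 and PSME2 lie at -0.02 and -0.04. PSMA5, at 0 with GSNAP, is not drawn in that pair.

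Among the subunits counted more evenly were PSMB4, PSMD14 and PSMC4. PSMB4 (NM_002796), a structural beta subunit, had 1827 to 3491 counts with TopHat2 (median 2498), 1802 to 3538 with Bowtie2 (median 2497), 1925 to 3744 with Stampy-G (median 2629), 1676 to 3211 with Bowtie2-G (median 2315.5) and 1122 to 2109 with GSNAP (median 1533.5). The GSNAP values were the lowest and the 6 ranges overlapped. PSMD14, the deubiquitinating subunit of the 19S lid, kept between 73.0% of its TopHat2 counts with GSNAP and 105.3% with Stampy, and PSMC4, an ATPase, between 71.1% with GSNAP and 93.9% with Stampy-G. Summed by role, PA28 kept the smallest share with Bowtie2-G, 14.6% of the TopHat2 level, all of it from PSME2, and the 19S ATPases kept 41.3%. The corresponding shares were 56.2% for the 19S non-ATPase subunits, 65.6% for the alpha ring, 71.5% for the immunoproteasome and 72.9% for the structural beta subunits. With Bowtie2 on the transcriptome the immunoproteasome had the smallest share, 36.6%, compared with 94.1% to 103.2% for the other roles.

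The proportions between immunoproteasome subunits within an animal therefore differed by method. The ratio of PSMB9 to PSMB10 counts had a geometric mean of 0.259 with Bowtie2, 0.752 with Stampy, 1.85 with Stampy-G, 2.01 with Bowtie2-G, 2.10 with TopHat2 and 3.08 with GSNAP. These ratios mix the lengths of 2 transcripts and are read only between methods. Animal 11 had the lowest ratio in all 6 methods. The ratio of PSMB9 to PSMB8, which move together between methods, stayed between 3.19 with Stampy and 3.94 with Bowtie2-G.

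Counts of an immune catalytic subunit could be set against those of its constitutive counterpart only for PSMB10 and PSMB7. These are RNA counts, and they do not measure the exchange of subunits in the assembled complex. The ratio of PSMB10 to PSMB7 counts ran from 2.42 to 8.04 over the animals with TopHat2 (median 4.68) and from 1.71 to 5.27 with GSNAP (median 3.09). Animal 3 had the lowest ratio and animal 5 the highest in all 6 methods. The mean log2 ratio was 2.22 with TopHat2 and 1.54 with GSNAP, a difference of 0.68 ± 0.13 (SD, n = 12), with TopHat2 higher in 12 of 12 animals (exact paired permutation test over all sign exchanges, two-sided, p = 0.000488, the smallest it can give, adjusted p = 0.000651 over 8 pairs of methods). Stampy exceeded Bowtie2 by 0.32 ± 0.04 (12 of 12 animals, adjusted exact p = 0.000651) and Stampy-G exceeded TopHat2, with a difference of -0.29 ± 0.06 for TopHat2 minus Stampy-G (12 of 12, adjusted exact p = 0.000651). The smallest difference, Bowtie2 minus Bowtie2-G, was -0.04 ± 0.05 and went the same way in 9 of 12 animals (exact p = 0.00977).

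Differences between animals were of another kind from those between methods. For 21 of the 29 genes, the SD of the log2 level over the 6 methods exceeded the SD over the 12 animals, with medians of 0.57 and 0.32. This includes PSMA5, with its GSNAP counts of 0. In blood, a lower level can come from fewer cells that express a gene or from less RNA in each cell, and counts of the whole sample cannot tell these apart. The labels give no sequencing batch.

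With TopHat2 and TMM-scaled log2 levels, 27 subunit genes had a mean of 100 counts or more. Their median SD over animals was 0.31, compared with 0.28 over 6697 accessions, and 15 of the 27 were above that median. PSMD2, a large scaffold subunit of the 19S base, varied least on this scale, with an SD of 0.12 and a 1.25-fold range, and 98.3% of accessions varied more. Per read pair, as a mean log2 level over the 6 methods, its SD was 0.28 with a 2.07-fold range, and PSMD4 (0.18) and PSMD13 (0.19) were among the genes with a smaller SD. PSMA6 (SD 0.82), PSMA2 (0.73), PSMB7 (0.55) and PSMC6 (0.51) varied most, and 2.37% of accessions varied more than PSMA6. PSMA6 (NM_002791), of the alpha ring, had 149 to 857 counts with TopHat2 (median 406), and PSMA2 (NM_002787), of the same ring, 158 to 717 (median 269). For all 4 genes the lowest levels were in animals 4 and 5, and for PSMA2, PSMA6 and PSMC6 the highest were in animals 2 and 3. The order of the animals for PSMA2 was nearly the same in every method, with Pearson's r between methods of at least 0.989 over the 12 animals. PSMB7 had a lowest r of 0.995, PSMA6 of 0.96 and PSMC6 of 0.82. The lowest r was -0.09 for PSMC5, 0.48 for PSMC1 and 0.57 for PSMB2. For PSMA5, at 0 counts in every animal with GSNAP, it was 0.29 among the other 5 methods. PSMA5, PSMC1 and PSMC5 had few counts in the methods where they were low, and the part of counting error in these r values was not tested. Columns of 1 animal share their reads, and these r values describe agreement of the methods only.

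Of the immunoproteasome subunits, on the same TMM scale, PSMB9 varied most between animals (SD 0.39, 2.46-fold between animals 5 and 8), followed by PSMB10 (SD 0.36, 2.31-fold between the same animals) and PSMB8 (SD 0.20, 1.52-fold between animals 9 and 12). The lowest animals depended on the scale. Per read pair with TopHat2 they were animal 11 for PSMB9, animal 4 for PSMB10 and animal 6 for PSMB8, and PSMB8 was highest in animal 5. PSME2 had an SD of 0.40 and a 2.88-fold range, from animal 6 to animal 8. Animal 8 thus had the highest level of PSMB9, PSMB10 and PSME2.

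Of the 16 gene pairs fixed for correlation over animals, 7 could be computed, since PSMB5, PSMB6 and PSME1 were at 0. With TopHat2 levels in 12 animals, 4 of the 7 pairs passed an adjusted p of 0.05 for Pearson's r by permutation with 100000 resamples. PSMB8 and PSMB10 had r = 0.78 (permutation p = 0.0026, adjusted 0.0090) and Spearman's rho = 0.73 (permutation p = 0.0084, adjusted 0.029). PSMB8 and PSME2 had r = 0.78 (permutation p = 0.0023, adjusted 0.0090) and rho = 0.65 (permutation p = 0.026, adjusted 0.056). PSMB10 and PSME2 had r = 0.69 (permutation p = 0.013, adjusted 0.029) and rho = 0.57 (permutation p = 0.056, adjusted 0.078), and PSMB9 and PSME2 had r = 0.63 (permutation p = 0.027, adjusted 0.048) and rho = 0.83 (permutation p = 0.0016, adjusted 0.011).

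In 3 of these 4 pairs r was lower without the extreme animals, and for PSMB9 and PSME2 it was higher. Without the 2 animals farthest from the median of the first gene, r was 0.59 for PSMB8 and PSMB10, 0.66 for PSMB8 and PSME2 (both without animals 8 and 12), 0.43 for PSMB10 and PSME2 (without animals 5 and 8) and 0.71 for PSMB9 and PSME2 (without animals 5 and 11), and none passed an adjusted permutation p of 0.05 in the 10 animals left. The other 3 pairs were PSMB8 and PSMB9 with r = 0.60 (permutation p = 0.038, adjusted 0.053; rho = 0.63, p = 0.032, adjusted 0.056), PSMB9 and PSMB10 with r = 0.56 (permutation p = 0.057, adjusted 0.057; rho = 0.54, p = 0.075, adjusted 0.088) and PSMB7 and PSMB10 with r = 0.56 (permutation p = 0.056, adjusted 0.057; rho = 0.41, p = 0.19, adjusted 0.19). Without the 2 farthest animals, r was 0.31 for PSMB8 and PSMB9, 0.62 for PSMB9 and PSMB10 and 0.29 for PSMB7 and PSMB10. The r of PSMB8 and PSMB9 depended on the mapping. It was 0.68 with Stampy-G, 0.74 with Stampy, 0.76 with Bowtie2, 0.81 with Bowtie2-G and 0.88 with GSNAP, and passed the adjusted threshold with each of these 5 methods.

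Across all 351 pairs of the 27 genes with TopHat2, as a description without a test, the median r over the 12 animals was 0.42, compared with 0.001 over all pairs of 6697 accessions. It was 0.58 within the constitutive 20S core (36 pairs), 0.66 among PSMB8, PSMB9, PSMB10 and PSME2 (6 pairs) and 0.34 within the 19S cap (91 pairs). The highest values joined the genes that varied most, with 0.96 for PSMA2 and PSMA6, 0.95 for PSMA2 and PSMB7, and 0.92 for PSMA2 and PSMC6. PSMD2 and PSMD3 of the 19S cap had an r of 0.92 with each other and negative values with several core genes, -0.35 for PSMD2 and PSMB3 and -0.39 for PSMD3 and PSMB3. The lowest value was -0.57 for PSMD3 and PSMD13. PSMC4 was below 0 with PSMA7 at -0.46, with PSMD14 at -0.47 and with PSMB4 at -0.39. These genes come from the same 12 libraries, and their levels share depth and scaling.

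**Figure D4:**
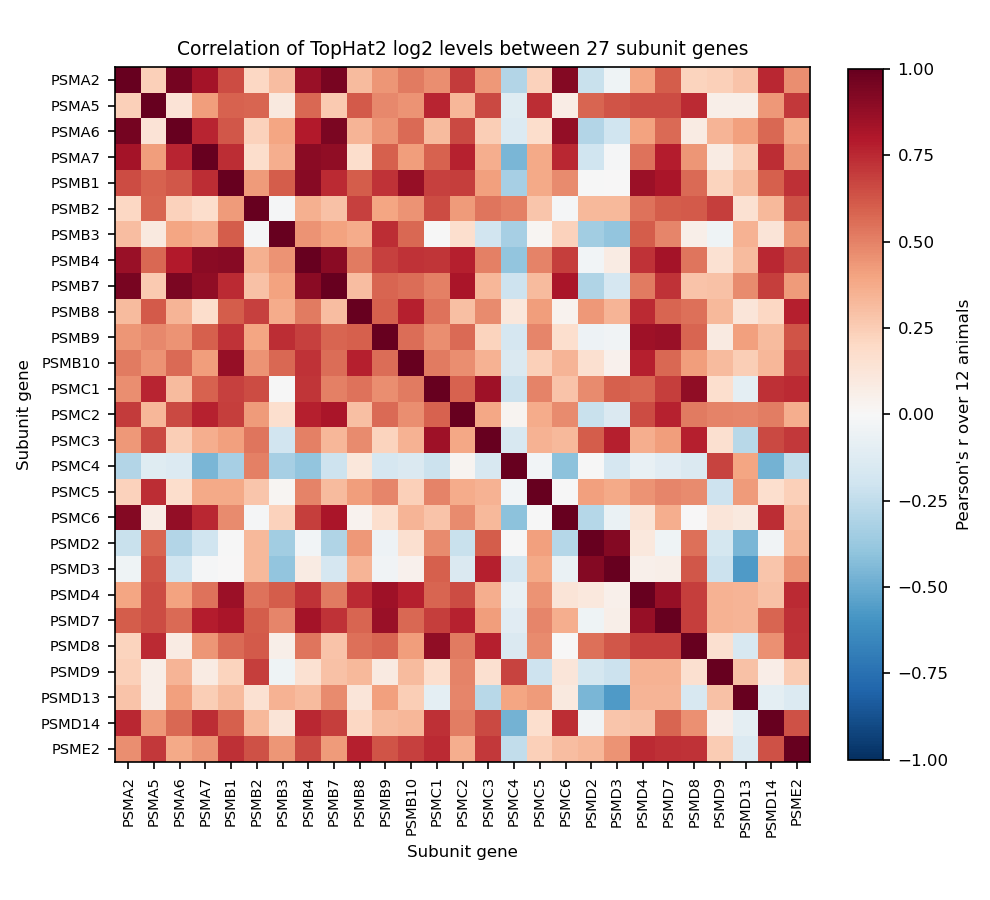
Pearson's r over the 12 animals between the TMM-scaled TopHat2 log2 levels of 27 subunit genes, in the order alpha ring, beta ring, immunoproteasome, ATPases, non-ATPases and PSME2. Red is positive and blue negative. PSMA2, PSMA6, PSMA7, PSMB4, PSMB7 and PSMC6 form the darkest red set, while PSMC4, PSMD2, PSMD3 and PSMD13 hold most of the blue.

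The share of reads lost by a mapping was not the same in every animal. Among the subunits with a mean of 500 counts or more with both TopHat2 and GSNAP, the SD of the log2 ratio of their counts was largest for PSMB8. GSNAP kept 37.7% to 53.6% of the TopHat2 counts of PSMB8, with a median over animals of 51.4%. Animals 2, 5 and 11 kept 39.1%, 39.2% and 37.7%, animal 1 kept 47.0%, and the other 8 kept 50.8% to 53.6%. The SD of the log2 ratio over animals was 0.19, which is 3.441 times that of independent counting, and the corresponding multiple for PSMB9 was 3.505. Subunits with fewer counts had larger SDs nearer to that of independent counting, such as PSMC6 with GSNAP at 0.28 and 1.10 times. Both counts come from the same reads, so independent counting is a reference only and not the counting error of their ratio. Among 2401 accessions with a mean of 500 counts or more in both methods the median of this SD was 0.03, and 0.916% had a larger one. With Bowtie2-G the same 4 animals had the lowest shares of PSMB8, 60.2% to 62.2%, compared with 67.2% to 71.2% in the others. PSMB10 with GSNAP (SD 0.13, 1.79% of accessions larger), PSME2 with GSNAP (SD 0.12, 2.46% larger) and PSMB9 with GSNAP (SD 0.11, 2.87% larger) came next with that method, and the highest other subunit above this minimum was PSMC2, with 15.2% of accessions larger.

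The animals at the low end differed between these genes. For PSMB9 the lowest share with GSNAP was 36.5% in animal 1 and the highest 46.9% in animal 2. For PSMB10 the values split into 30.2% to 33.4% in animals 3, 4, 5, 7 and 12 and 26.4% to 27.8% in the other 7. PSME2 kept the largest share in animal 5 with each of the 3 genome mappings other than TopHat2: 28.0% with GSNAP, 25.8% with Stampy-G and 19.2% with Bowtie2-G. The lowest animals had 20.9%, 18.0% and 12.3%. PSMB4 and PSMD3, subunits of the core and the cap, varied only from 56.3% to 62.8% and from 56.9% to 61.8% with GSNAP. With Bowtie2, animals 1, 2 and 3 had higher shares than all others for PSMA2, PSMA7, PSMB1, PSMB7, PSMB10, PSMC3 and PSME2. The shares were 101.8% to 102.9% compared with 95.1% to 98.3% for PSMB7, and 104.4% to 108.0% compared with 95.9% to 102.5% for PSMB10. PSMB4, PSMB8, PSMB9 and PSMD3 did not split this way. Animals 1, 2 and 3 are the study's controls, and all other animals were inoculated after this baseline. The study arm cannot be told apart from anything else that these 3 animals share. All animals named here were singled out after their values were seen, and what they share was not tested.

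**Figure D5:**
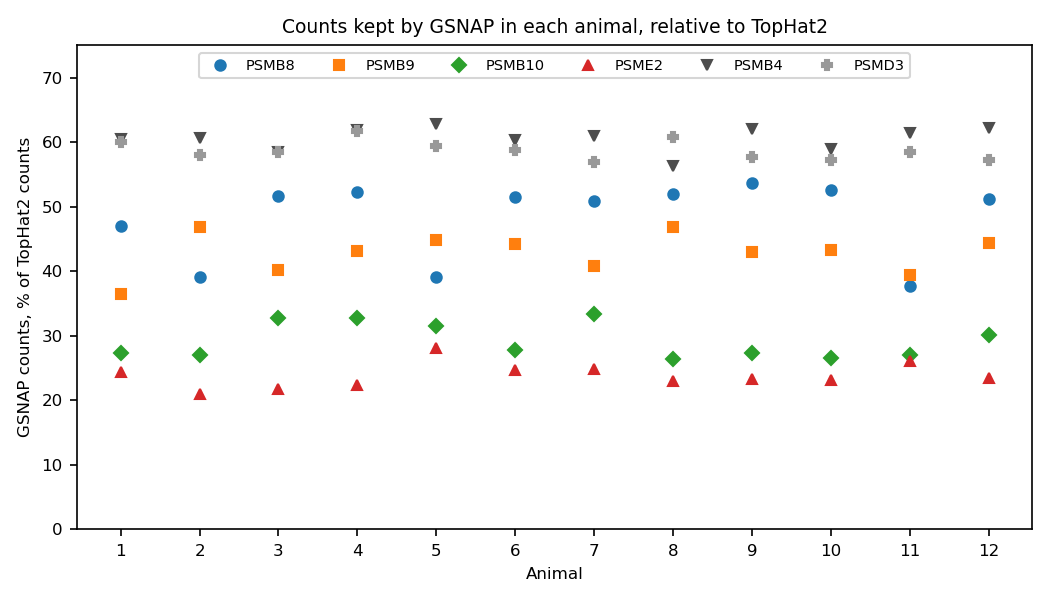
GSNAP counts as percent of the TopHat2 counts (vertical axis) in each of the 12 animals (horizontal axis) for PSMB8, PSMB9, PSMB10 and PSME2, with PSMB4 and PSMD3 for comparison. Each point is 1 animal. PSMB8 lies between 37.7% and 39.2% in animals 2, 5 and 11 and between 50.8% and 53.6% in 8 others.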

How the data were processed

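The authors trimmed the paired reads (Trimmomatic 0.25) and mapped them to human sequence (hg19) with 4 programs at default settings: TopHat2 2.0.7, GSNAP, Stampy and Bowtie2 2.0.6. They counted reads per transcript with htseq-count (HTSeq 0.5.4) in its intersection-nonempty mode, over primary alignments. That mode leaves out a read whose position cannot be told apart between transcripts. The strand setting is not given in the sources used here. These steps are taken from the study's methods and the labels. The deposited values are raw whole-number counts without normalization. The number in a column's name was the only link to an animal.

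Rows of 1 accession were summed. The 8 pairs of methods were tested with edgeR 4.0.16 (glmQLFit and glmQLFTest, filterByExpr, adjusted p under 0.05 by Benjamini-Hochberg) in R 4.3.3. The library size of both columns of an animal was its number of quality-controlled read pairs, as the study gives it. Standard errors were derived from the fold change and its F statistic and are approximate. The animal was a block because both columns come from the same reads. In all 180 comparisons of a column with another table, it matched its own animal best, and the lowest correlation of the deviations was 0.42. No 2 animals of a table were duplicates (smallest chi-square per degree of freedom 24.3). Spread, correlations and ratios used log2(count + 1), scaled by TMM except for ratios, in Python 3.11.15 with numpy 2.4.6 and scipy 1.17.1. The edgeR script was tested on simulated data. Each animal gave 1 sample, and p-values between methods measure mapping differences in these libraries.

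Always described were PSMB7 to PSMB10 and PSME2, with up to 4 other members in each direction that had the largest differences in all 12 animals. Members and lists were chosen with earlier results of these data known. Lists of other pathway genes and blood cell markers, comparisons per transcript length and sequences were not used here, because no source used here pairs accessions with names, lengths or sequence.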

Additional observations from a re-analysis of the deposited data

How the results depend on the processing

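The scaling mattered most. Per read pair, the median of all accessions shifted by up to 0.72 on the log2 scale (TopHat2 minus GSNAP). With TMM library sizes, the subunits higher and lower with TopHat2 were 19 and 7 against GSNAP, 24 and 2 against Bowtie2-G, 27 and 2 against Stampy-G, and 22 and 0 against Bowtie2. Over all accessions tested, the counts were 4439 and 4380 of 10665 against GSNAP and 3775 and 4999 of 11071 against Bowtie2-G. Against Stampy-G they were 4752 and 4367 of 11684, and against Bowtie2 4600 and 3190 of 11612. For Stampy-G over Bowtie2-G the subunits were 12 and 10, and all accessions 3838 and 4006 of 10704. For Stampy over Bowtie2 the subunits were 2 and 27, and all accessions 4309 and 6257 of 12944. For Bowtie2 over Bowtie2-G the subunits were 21 and 6, and all accessions 3957 and 5479 of 11362. For Stampy over Stampy-G the subunits were 12 and 15, and all accessions 4483 and 7225 of 13330. TMM scaling reversed 16 of 80 differences of named members: TopHat2 minus Stampy-G became 0.15 for PSMB8, 0.10 for PSMB9, 0.056 for PSMB1, 0.079 for PSMB4 and 0.080 for PSMD3. TopHat2 minus Bowtie2 became 0.036 for PSMB10 and 0.00686 for PSME2. Stampy minus Bowtie2 became -0.38 for PSMB7, -0.054 for PSMB10, -0.451 for PSME2, -0.091 for PSMD9, -0.19 for PSMD8, -0.23 for PSMD7 and -0.26 for PSMB1, and Stampy minus Stampy-G became -0.27 for PSMB7 and -0.19 for PSMB10. TMM did not bring the median of all accessions to 0. That median was 0.01 for TopHat2 minus Stampy-G and 0.04 for TopHat2 minus Bowtie2. It was -0.10 for Stampy minus Bowtie2 and -0.20 for Stampy minus Stampy-G.

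Without the replicate block, which ignores that both columns come from 1 animal, fewer members were called. Then 0 were higher with Stampy-G than TopHat2, 7 with TopHat2 and 0 with Bowtie2 in that pair, 18 with Stampy-G over Bowtie2-G, 6 with Stampy over Bowtie2 and 2 with Stampy-G over Stampy. Over all accessions tested, the counts were 2857 of 11730 for Stampy-G over TopHat2, and 961 and 1861 of 11643 for TopHat2 and Bowtie2. They were 5139 of 10738 for Stampy-G over Bowtie2-G, 6253 of 13081 for Stampy over Bowtie2 and 692 of 13416 for Stampy-G over Stampy. DESeq2 called 2 members higher with Bowtie2 than TopHat2, and Bonferroni correction 0, with 14 higher with Stampy than Bowtie2. Of 11643 accessions in the first pair, DESeq2 called 3816 higher with Bowtie2 and Bonferroni correction 2496. In the second pair, Bonferroni correction called 8592 of 13081 accessions higher with Stampy. No filter, unsummed rows and leaving out animal 5 or 11 (chosen after seeing the data) changed no call of a named member.

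The correlations depended on animals and mapping. Without the 2 farthest animals r was lower for PSMB8 and PSMB10 (0.59), PSMB8 and PSME2 (0.66) and PSMB10 and PSME2 (0.43) and higher for PSMB9 and PSME2 (0.71), none past the threshold in the 10 animals left. For PSMB8 and PSMB9, r passed it with Bowtie2 (0.76), Stampy (0.74), Bowtie2-G (0.81), Stampy-G (0.68) and GSNAP (0.88), and without animal 5 or 11 (0.68 and 0.63). PSMB9 and PSMB10 passed with Bowtie2-G (0.63), GSNAP (0.73) and without animal 11 (0.69), and PSMB7 and PSMB10 with Bowtie2 and Stampy (0.59 each). PSMB9 and PSME2 missed it with Bowtie2-G (0.46), Stampy-G (0.45) and GSNAP (0.55). The SD of PSMC6 over animals was 0.35 with Bowtie2-G and 0.37 with Stampy-G and GSNAP. The ratio of PSMB10 to PSMB7 kept its direction and side of the threshold with added counts of 0.5 and 5 and without animal 5 or 11. Causes were not tested.

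Gene-level sums, the comparison of partners per transcript length and the ratios of PSMB8 to PSMB5 and PSMB9 to PSMB6 were not run. Genes with few counts, such as PSMC5 with 2 to 15 with Bowtie2-G, limit what their differences between animals can show.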

Other observations

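PSMB2, a structural beta subunit of the core, was another gene whose mapping differed in a single animal. GSNAP kept 20.7% of its TopHat2 counts in animal 1, compared with a median of 36.3% over the 12 animals. PSMD9 had its highest level in animal 11 in all 6 methods, with 488 counts with TopHat2 compared with a median of 329.5. PSMC4 had its lowest level in animal 8 in all 6 methods, the animal with the highest PSMB9, PSMB10 and PSME2. These animals were singled out after their values were seen, and no test was made.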
